A study of Bos indicus with 12 samples.

Results

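Most 100 bp windows of Nelore muscle DNA with many covered CpG cytosines carried almost no methylation, and 1192 of the 18259 such windows on chromosomes 1 to 29 (6.53%) were instead highly methylated. These highly methylated CpG-dense windows are the subject here. A window was CpG-dense when the deposited table held 8 or more cytosines in it, each strand of a CpG being counted as its own cytosine. A dense window was a member when 80% or more of the reads over all its cytosines and all 12 animals were methylated, so that methylation itself is what the members were chosen by. The members held 11577 of the 629700 autosomal cytosines of the table. For comparison, 15284 dense windows (83.7%) were under 10% and 1783 lay between.

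The animals were Nelore (*Bos indicus*) steers, and the DNA was from *longissimus thoracis* muscle. The Tough group (n = 6) had higher shear force, which means lower tenderness, and the Tender group (n = 6) had lower shear force, which the labels give for 7 days after slaughter. The text of the study names a later day for this measure. Each animal gave 1 library. The steers were kept in feedlots on one ration, and the groups were picked from the ends of the estimated breeding values for shear force in a larger herd. The material was whole muscle, so fibre nuclei and nuclei of other cells, such as fat cells, were read together. Shear force is the resistance of cooked meat to a blade.

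In mammals, DNA methylation is placed mainly on cytosines followed by guanine (CpG), and in somatic tissue most isolated CpGs are methylated. Stretches where CpGs are closely packed, called CpG islands, often lie at gene starts and are usually free of methylation. The dense windows that are methylated are known to include island-like sequence inside genes, between genes and in repeats, and starts of genes that are silent outside the germ line. Reduced representation bisulfite sequencing (RRBS) reads DNA cut at CCGG sites, which enriches for CpG-rich DNA, after bisulfite has turned unmethylated cytosines into bases read as thymine. Cattle autosomes are acrocentric, with the centromere near the start of the sequence, so that the end of a chromosome sequence is its distal end.

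Summed over all cytosines of the table, scaled coverage ran from 18399401 to 23470740 reads per animal, and the median coverage of a cytosine from 25 to 33. Bisulfite conversion, taken from the unmethylated control DNA of each library in the study's mapping statistics, set apart 5 libraries of higher conversion (Tough 2, 5 and 6, Tender 2 and 5) and 7 of lower conversion. The split fell across both groups.

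Methylation in dense windows was spread over 2 ends with a thin middle. Of the windows under 10%, 13059 (85.4%) were under 2%, and their median was 1.05%. The members had a median of 92.7% and a highest value of 98.8%. By level, 153 members were at 80 to 85%, 233 at 85 to 90%, 483 at 90 to 95%, 306 at 95 to 98% and 17 at 98% or more. In even steps of 2 points, the number of windows rose from 54 at 80 to 82% to its top of 236 at 94 to 96%.

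**Figure D1:**
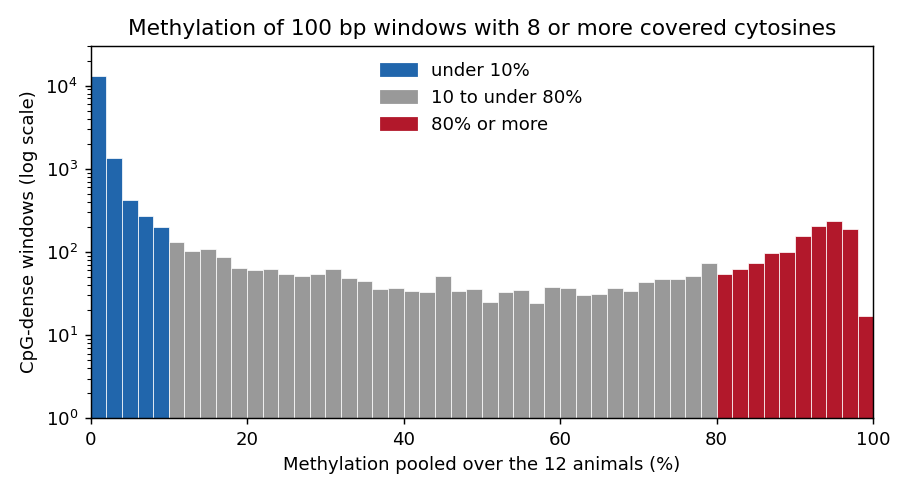
Number of CpG-dense windows (log scale) by methylation pooled over the 12 animals, in steps of 2 percentage points. The 15284 windows under 10% are blue and the 1192 at 80% or more are red, with 1783 grey windows between them.

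The values at the threshold were continuous. The 3 members just inside it were chr29:50306601-50306700 at 80%, chr3:117544101-117544200 at 80.02% and chr29:48812101-48812200 at 80.04%. Just outside lay chr24:60789001-60789100 at 79.98%, chr20:71290501-71290600 at 79.97% and chr25:599801-599900 at 79.97%. Positions are on ARS-UCD1.2, counted from 1.

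The share of highly methylated windows fell with the number of covered cytosines in the window. It was 39.8% of windows with 1 cytosine, 32.4% with 2 to 3 and 18.96% with 4 to 7. Among dense windows it was 10.1% with 8 to 9 cytosines, 5.85% with 10 to 11, 3.998% with 12 to 15 and 1.47% with 16 or more. Members were accordingly on the sparse side of the dense windows, with a median of 9 cytosines and at most 21, while windows under 10% had a median of 10 and at most 38. Counted as CpG dinucleotides, members had a median of 7 (4 to 16) and windows under 10% a median of 8 (4 to 23). Both strands were covered in 974 members (81.7%) and in 78.5% of the windows under 10%.

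The members with the most cytosines show how high methylation runs across a whole dense window. The window chr17:72979101-72979200 had 21 cytosines at 12 CpGs, with single cytosines from 82.7 to 99.1% and 15 of the 21 at 90% or more. Its 6 Tough animals lay between 92.0 and 95.7% (median 93.3%), and the 6 Tender animals had a lowest value of 93.2% and a median of 94.5%. In chr1:145316001-145316100, 17 of 20 cytosines were at 90% or more and the window stood at 95.9%. In chr12:86390101-86390200, 19 of 20 cytosines were at 90% or more and the window stood at 94.2%.

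The other 2 windows of 20 cytosines were less even. In chr13:64317701-64317800, at 93.9%, 18 of 20 cytosines were at 90% or more, with the lowest at 53.1%. In chr29:49978001-49978100, at 82.7%, the cytosines ran from 51.8 to 93.0% and 6 of 20 reached 90%. Against these, the 2 windows under 10% with the most cytosines, chr7:43689501-43689600 and chr18:13036501-13036600, had 38 cytosines each and stood at 0.564% and 0.657%, with no cytosine above 4.53%.

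The highest levels were not in the windows with the most cytosines. The 5 highest members were chr18:65611901-65612000 (98.8%, 11 cytosines), chr19:5541501-5541600 (98.8%, 9), chr17:72546001-72546100 (98.7%, 9), chr19:8468601-8468700 (98.6%, 11) and chr21:67252301-67252400 (98.5%, 8). In each of them every cytosine was at 95% or more. Of these, 3 lay within the last 3 Mb of their chromosome, and the 2 on chromosome 19 lay 57.9 and 55.0 Mb from its end.

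Within members, high methylation was carried by nearly all cytosines. Pooled over animals, 10614 of the 11577 cytosines (91.7%) were at 80% or more and 5266 (45.5%) at 95% or more. Every cytosine was at 80% or more in 705 members (59.1%) and at 90% or more in 271 (22.7%). The lowest cytosine of a member had a median of 83.2%, the highest 98.2%, and the distance between them a median of 14.2 percentage points. At CpGs covered on both strands, the strands differed by a median of 1.91 points over 3025 CpGs in members and by 0.535 over 45149 CpGs in windows under 10%.

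Cytosines of low methylation inside members were few. There were 87 under 50%, in 72 members, and 30 under 20%, in 28 members. Of these 30, 9 were under 20% in every animal, 7 had their highest animal at 20 to under 40% and 14 had an animal at 40% or more. At one CpG of chromosome 1, position 151588633 on the forward strand was at 57.1% in Tough 5, 64.5% in Tender 3 and 61.3% in Tender 5, and at 3.85% or less in the other 9 animals. Its reverse strand partner at 151588634 was at 40.5, 52.6 and 43.8% in the same 3 animals and at 0 in the other 9. The cytosine at chr4:116803767 was at 0.330% pooled, with no animal above 3.85%, in a window at 81.4%. This CpG and this cytosine were picked after their values were seen.

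The members lay towards the distal ends of the chromosomes. In the last 5 Mb, measured back from the last covered cytosine of each chromosome, were 541 of the 1192 members (45.4%, Wilson 95% interval 42.6 to 48.2%, which covers counting error only), against 16.7% of the windows under 10%, 31.8% of the 1783 windows between 10 and 80%, 20.02% of dense windows and 20.9% of all covered windows. The last 1 Mb held 16.3% of members and 6.22% of windows under 10%, and the last 10 Mb held 57.3% and 26.8%. The median distance to the end was 7.05 Mb for members, 14.7 Mb for the windows between and 28.8 Mb for windows under 10%. The first 2 Mb held 4.19% of members and 3.06% of windows under 10%, a far smaller gap than at the other end. Neighbouring windows share sequence and animals, so these shares are given as descriptions with no test.

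The share of dense windows that were members was level over the last 5 Mb and fell beyond it. It was 14.6% in the last 1 Mb, 15.1% from 1 to 2 Mb and 14.9% from 2 to 5 Mb. It was then 7.57% from 5 to 10 Mb, 5.35% from 10 to 20 Mb, 3.29% from 20 to 40 Mb and 3.84% farther in. The same order held within windows of like cytosine number, at 21.6% in the last 5 Mb against 7.20% elsewhere for 8 to 9 cytosines, and 3.67% against 0.842% for 16 or more.

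Members also lay where few other cytosines were covered. Within 1 kb on either side, members that had any covered neighbour had a median of 7 covered cytosines and windows under 10% had 31. None was covered around 228 of the 1192 members and 234 of the 15284 windows under 10%. Among dense windows with no covered cytosine around them, 46.5% were members in the last 5 Mb and 32.8% elsewhere. Among those with 31 or more, the shares were 2.19% and 0.382%. Distal windows had the higher share in all 5 classes of surrounding coverage and in all 4 classes of cytosine number.

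**Figure D2:**
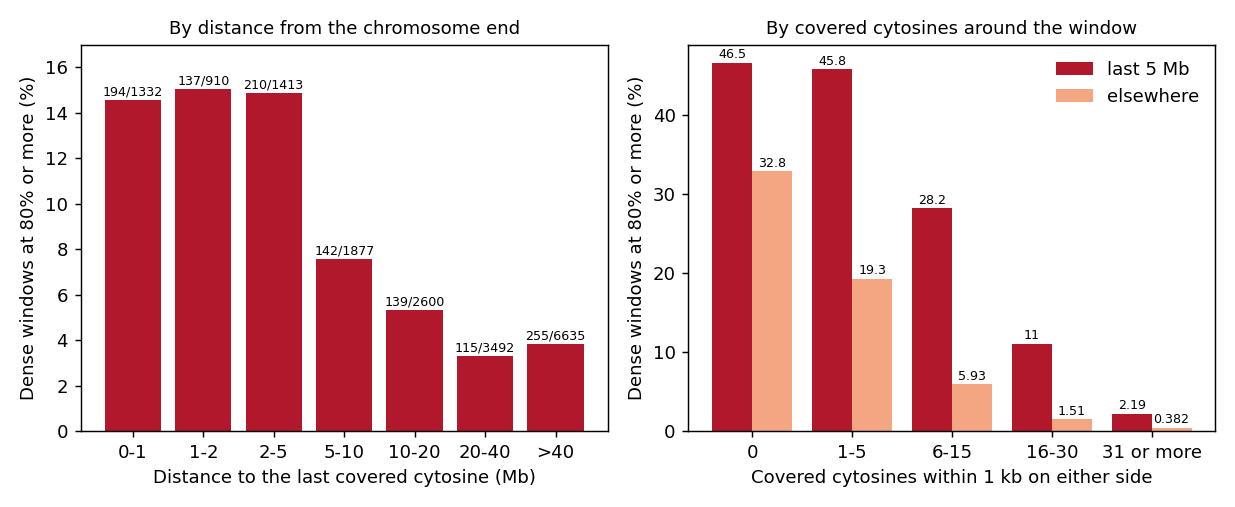
Percent of CpG-dense windows at 80% or more, by distance in Mb to the last covered cytosine of the chromosome (left, with members over dense windows above each bar) and by the number of covered cytosines within 1 kb on either side, in the last 5 Mb and elsewhere (right). Shares are 14.6 to 15.1% over the last 5 Mb and 3.29 to 7.57% beyond it, and they fall with surrounding coverage in both places.

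The order was the same on every autosome, though on some it rested on few members. On 29 of 29 chromosomes, a larger share of members than of windows under 10% lay in the last 5 Mb. The last 5 Mb held only 2 of 42 members on chromosome 7, 2 of 27 on 14 and 3 of 19 on 27. The shares stood far apart on chromosomes 2 (63.6 against 12.7%) and 9 (56.5 against 7.88%), for example, and close together on chromosome 7 (4.76 against 3.01%), 14 (7.41 against 3.87%) and 19 (8.57 against 3.95%). Chromosome 6 had the highest distal share, 84.1% of its 44 members, against 35.9%.

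**Figure D3:**
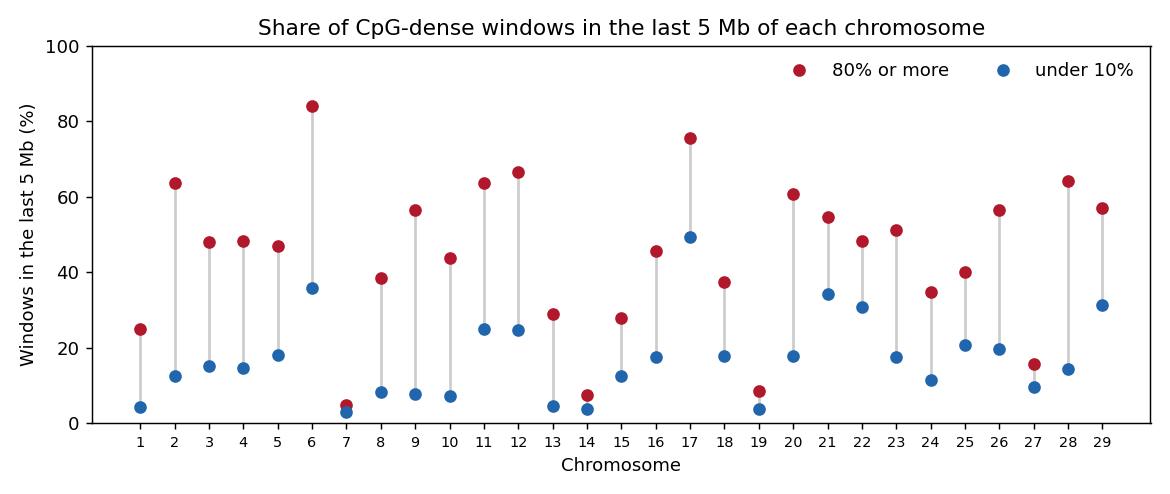
Percent of CpG-dense windows in the last 5 Mb of each of the 29 autosomes, for windows at 80% or more (red) and under 10% (blue), joined by a grey line. The red point is above the blue one on every chromosome, by little on chromosomes 7, 14 and 19.

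Chromosome 18 held the most members, 128, followed by chromosome 25 with 80, chromosome 17 with 74 and chromosome 19 with 70. As a share of a chromosome's dense windows, members ran from 2.90% on chromosome 10 to 10.98% on chromosome 18. Chromosome 19, which had the most dense windows (1442), was below the average of all chromosomes at 4.85%. In 1 Mb bins, members fell in 460 bins, of which 61 had 5 or more and together held 523 members. The bins with the most were chr17:72000001-73000000 with 26 of 228 dense windows, chr17:71000001-72000000 with 23 of 107 and chr18:65000001-66000000 with 20 of 59. All 3 lay near the end of their chromosome.

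The members were mostly single windows in methylated surroundings. Of the 1192 members, 1105 (92.7%) had no adjacent member, against 62.2% of windows under 10% with no adjacent window of their kind. There were 33 runs of 2 adjacent members, 3 of 3 and 3 of 4, while the longest run under 10% had 8 windows. The 3 longest runs were chr18:65803701-65804100 with 52 cytosines and windows at 92.3 to 94.8%, chr18:65716901-65717300 with 46 cytosines at 89.6 to 97.999%, and chr4:112786401-112786800 with 45 cytosines at 95.2 to 98.05%. Both runs on chromosome 18 lay within its last 0.1 Mb.

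In the 964 members with covered cytosines within 1 kb, those cytosines had a median methylation of 89.7%. They were at 80% or more around 741 members and under 10% around 2. Around windows under 10%, the same flanks had a median of 1.38%, and 94.3% of them were under 10%. Members and unmethylated windows were seldom close neighbours, with 2 members within 1 kb and 170 (14.3%) within 5 kb of a window under 10%.

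The high level of the members was shared by the animals. In 910 members (76.3%) all 12 animals were at 80% or more, in 23 it was 6 animals or fewer, and 1 member had an animal under 50%. When members were chosen on the other 11 animals, 1186 to 1201 windows were found, and the animal left out had a mean of 90.2 to 92.0% over them, with 91.5 to 95.9% of the windows at 80% or more. Tough 2 was the lowest of the animals left out. Among the windows under 10%, 14584 (95.4%) were under 10% in every animal.

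Averaged over the members, the Tough animals lay between 90.4 and 91.9% (median 91.5%) and the Tender animals between 91.4 and 92.1% (median 91.6%). The groups overlapped, and Tough 2 had the lowest value of all. The means were 91.4% ± 0.539 (SD, n = 6) and 91.6% ± 0.246, and the difference, Tender minus Tough, of 0.240 points was within the spread between animals (two-sided exact permutation test, p = 0.407, adjusted p = 0.491 over the 2 window classes). In cells taken as a bulk, a shift in methylation and a shift in the mix of cell types cannot be told apart.

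In the windows under 10%, the group means were 1.40% ± 0.409 and 1.53% ± 0.335, with a difference of 0.130 points (exact permutation p = 0.491). These windows differed instead by bisulfite conversion. The 7 libraries of lower conversion lay at 1.75% ± 0.0373 and the 5 of higher conversion at 1.05% ± 0.0632, with no overlap, and the difference, higher minus lower, was -0.699 points (exact permutation test, p = 0.00126, adjusted p = 0.00253 over 2). In the members the same libraries lay at 91.7% ± 0.256 and 91.3% ± 0.518, with overlap and a difference of -0.398 points (exact permutation p = 0.0758). Within the conversion groups, the members' Tender minus Tough difference was 0.344 points among the 5 libraries of higher conversion (exact permutation p = 0.800) and 0.0625 among the 7 of lower conversion (exact permutation p = 0.771). The smallest p that 3 against 2 libraries allow is above 0.05.

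**Figure D4:**
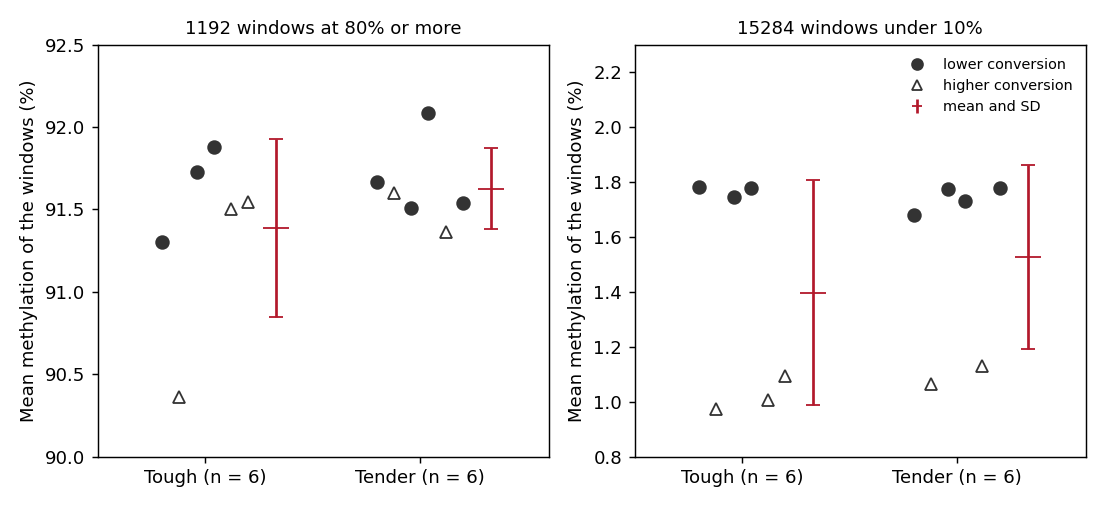
Mean methylation (%) of the 1192 members (left) and of the 15284 windows under 10% (right) in each animal, by group, with the mean and SD of 6 animals. Filled circles are libraries of lower and open triangles of higher bisulfite conversion, which separate in the right panel (1.75 and 1.05%) and overlap in the left one. The vertical axes are cut to the range of the data and do not start at 0.

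Taken over all windows of each class, the animals differed more in members than in the windows under 10%. The mean absolute deviation of an animal from the mean of the other animals was 2.77 points ± 0.291 (SD, n = 12) in members and 0.940 ± 0.0630 in windows under 10%. It was higher in members in 12 of 12 animals, by 1.83 points (two-sided exact sign-flip permutation test, p = 0.000488, the smallest that 12 animals can give). Each value uses the other animals too, so the 12 values are not independent, which the sign-flip tests of spread take them to be. The classes were chosen by level, on which sampling of reads depends. Binomial sampling, with a read counted at each cytosine it covers, gave a median SD of 1.61 points in members and 0.590 in windows under 10%. Counts from the same read are not independent, so the SD from sampling can be larger than these values. This p-value therefore cannot separate a difference between animals from the choice of levels. The SD between animals of a single window had a median of 2.85 points in members, 0.901 in windows under 10% and 6.60 in the windows between.

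The spread moved with the level of a window. Members at 80 to 85% had a median SD of 4.59 points, those at 90 to 95% one of 2.77 and those at 98% or more one of 1.28. Over all windows of both classes, the variance relative to the binomial sampling of reads (overdispersion) was also higher in members. The medians were 3.18 and 2.45, and the mean difference was 1.29 (exact sign-flip permutation p = 0.000977). Overdispersion too counts a read at each cytosine it covers, which can raise it. The part of this counting was not tested.

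At like distances from 0 and 100% the order did not hold. Members at 90 to 95% (483) had a median SD of 2.77 points and windows at 5 to 10% (643) had 3.34. The mean absolute deviation was lower in these members by 0.654 points (a difference, members minus windows under 10%, of -0.654, exact sign-flip permutation p = 0.000488, adjusted p = 0.00122 over 10 tests of spread). Members at 95 to 98% (306) had a median SD of 1.85 points and windows at 2 to 5% (1582) had 1.73, a difference in mean absolute deviation of 0.0839 points (exact sign-flip permutation p = 0.0625). Overdispersion was lower in members in both pairs of classes, by a difference of -4.37 in the first (exact sign-flip permutation p = 0.000488, adjusted p = 0.00122) and of -0.679 in the second (exact sign-flip permutation p = 0.0376, adjusted p = 0.0418). Pooled into 90 to 98% and 2 to 10%, the mean absolute deviation was higher in members by 0.155 points (exact sign-flip permutation p = 0.00195) and overdispersion lower, by a difference of -1.51 (exact sign-flip permutation p = 0.00244), but the 2 pooled sets hold different mixes of levels.

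**Figure D5:**
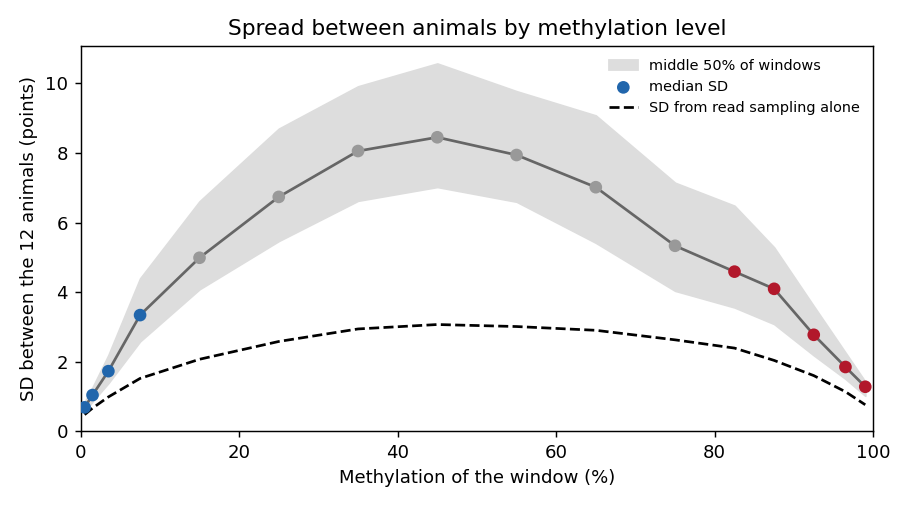
SD of methylation between the 12 animals (percentage points) against the level of the CpG-dense window (%), as the median and middle 50% of windows in each level class. The dashed line is the median SD from binomial sampling with a read counted at each cytosine it covers, which can understate the SD from sampling. Median SDs run from 1.28 to 4.59 points in members (red) and lie above the dashed line at every level.

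Distal members varied slightly more than the others. The mean absolute deviation was 2.85 points ± 0.281 (SD, n = 12 animals) in the 541 members of the last 5 Mb and 2.71 ± 0.312 in the other 651, higher in 10 of 12 animals by 0.138 (exact sign-flip permutation p = 0.00537, adjusted p = 0.0107 over 2). Their median level was 92.3 against 93.0%, and their median scaled coverage was lower, by 0.667 reads per cytosine on average (exact sign-flip permutation p = 0.0313). The part of level and coverage in the difference was not tested. The 12 deviations are again not independent of each other.

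Coverage was slightly higher in members, short of the threshold by the median. The median scaled coverage of a cytosine averaged 27.8 reads ± 2.53 (SD, n = 12) in members and 26.8 ± 2.38 in windows under 10%, higher in members in 8 animals and lower in 3 (mean difference of 1 read, exact sign-flip permutation p = 0.0732). With the mean over cytosines in place of the median, the difference was 2.03 reads (exact sign-flip permutation p = 0.00293).

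The 3 members with the largest spread lay in the lower range of member levels. In chr18:64543001-64543100 (84.6%, SD 14.6 points), Tender 6 was at 44.8% and the other Tender animals were between 79.5 and 94.6%. Among its Tough animals the lowest was 63.6%, the median 86.4% and the highest 95.6%. In chr16:29934201-29934300 (80.5%, SD 13.96), Tough 1 was lowest at 57.9% and Tough 4 highest at 96.7%. In chr21:64195101-64195200 (81.9%, SD 11.99), the Tough animals ran from 55.3 to 88.2% and the lowest Tender animal was at 69.8%. In each of the 3 the groups overlapped.

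The most even members were near complete methylation. They were chr19:43422701-43422800 (97.7%, SD 0.504 points), chr9:42924601-42924700 (98.4%, SD 0.659) and chr23:7580801-7580900 (97.6%, SD 0.701). The first had at least 709 reads in every animal when summed over its 9 cytosines, so a read covering several cytosines counts several times. Between the 12 animals, Pearson's r over the 1192 members had a median of 0.609 for the 30 pairs within a group and 0.599 for the 36 pairs between groups. This is a description across windows chosen for a narrow range of levels, and the windows are not independent replicates.

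The groups were also compared window by window, with the study's thresholds for a differentially methylated region between Tender and Tough. In a logistic regression with overdispersion and Benjamini-Hochberg adjustment over all 193249 windows, 0 of 1192 members had an adjusted p under 0.05 with a difference above 25 points, where 42 of all windows (0.0217%) did. The choice of members largely fixes this count, since with equal reads in both groups a window above 87.5% cannot differ by over 25 points, and 938 members (78.7%) were above that level. With the adjusted p alone, 1 member was called, where the background was 0.288% of windows. At an unadjusted p under 0.05 there were 105 members (8.81%, 70 higher in Tender and 35 higher in Tough), close to the 8.76% of all windows. The split by direction was not counted over all windows, so it has no background here. The groups did not overlap in 1 member (0.0839%), against 0.177% of all windows. The median difference was 0.174 points in members, with 54.8% of them higher in Tender, and 0.189 points with 54.3% over all windows.

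The called member was chr1:152290301-152290400, with 9 cytosines and 92.3% pooled. Its Tough animals were at 80.9% (lowest), 88.9% (median) and 95.1% (highest), and its Tender animals had a lowest value of 93.7% and a median of 98.1%. The groups overlapped at their edges. The pooled difference was 9.14 points (adjusted p = 0.0452 by logistic regression, exact permutation p = 0.00649 unadjusted). By an F-test in place of the chi-square test the adjusted p was 0.884. With the F-test 0 of all 193249 windows passed both thresholds, against 42 as reported, so its effect was not particular to this member. With conversion group as a covariate in the logistic regression the adjusted p was 0.0548. Leaving out 1 animal at a time kept the call in 3 of 12 cases (adjusted p 0.00635 without Tough 6 to 0.133 without Tough 2).

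The next members by p-value did not pass without a covariate. Higher in Tender were chr1:154513501-154513600 (4.07 points, adjusted p = 0.0621 by logistic regression, exact permutation p = 0.00433 unadjusted) and chr18:56243301-56243400 (3.31 points, adjusted p = 0.0644, exact permutation p = 0.00649). In the window on chromosome 1 the difference came from 1 cytosine, chr1:154513568, described below, and its other 7 cytosines differed by -0.862 points. Higher in Tough were chr25:1641901-1642000 (-4.20 points, Tender minus Tough, adjusted p = 0.0788 by logistic regression, exact permutation p = 0.00649 unadjusted), chr16:80425001-80425100 (-3.25 points, adjusted p = 0.0977, exact permutation p = 0.0195) and chr23:49574101-49574200 (-3.76 points, adjusted p = 0.107, exact permutation p = 0.00433). With conversion group as a covariate, a choice made after seeing the data, 3 members passed. They were chr18:56243301-56243400 (adjusted p = 0.0373 by logistic regression), chr16:80425001-80425100 (adjusted p = 0.0384) and chr19:15465101-15465200 (2.46 points, adjusted p = 0.0400, exact permutation p = 0.0108 without the covariate). The member whose groups did not overlap was chr10:100182801-100182900. It had Tough animals at 97.2 to 99.2% and Tender animals at 96.2 to 96.9%, with a pooled difference of -1.46 points (adjusted p = 0.179 by logistic regression; an exact permutation test of groups without overlap gives p = 0.00216).

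Single cytosines in members were tested in the same way. Of the 11577 cytosines in members, 1 (0.00864%) had an adjusted p under 0.05 with a difference above 25 points, against 121 of 635469 (0.019%) in the table. The choice of members limits this count as well. With equal reads in both groups such a difference cannot arise at 95% or more, where 45.5% of these cytosines lay. An adjusted p under 0.05 alone was found for 21 (0.181%), 9 of them higher in Tender and 12 higher in Tough, against a background of 0.135%. The one with the large difference lies at chr1:154513568 on the reverse strand. The study placed it in an intron, outside an island or shore, with *TBC1D5* as the closest gene, which codes for a protein of the Rab GTPase regulating TBC family that acts in endosomal trafficking. Its coverage ran from 10 to 26 reads per animal.

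At this cytosine the Tough animals were at 14.3% (lowest), 53.9% (median) and 90.5% (highest) and the Tender animals at 83.3, 96.4 and 100%. Tough 1 was the one Tough animal inside the Tender range. The pooled difference was 39.3 points (adjusted p = 0.0464 by logistic regression, exact permutation p = 0.00649 unadjusted), while the other 7 cytosines of its window, chr1:154513501-154513600, differed by -0.862 points. The adjusted p was 0.806 by the F-test and 0.0888 on reads before scaling. Leaving out 1 animal at a time, it stayed under 0.05 in 3 of 12 cases (without Tough 1, Tough 6 or Tender 1) and reached 0.120 without Tender 2.

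Among the other 20 called cytosines, the differences stayed under 25 points, and in 13 of them every animal of 1 group was at 100%. A group without variation adds nothing to the estimated overdispersion, which lowers the logistic regression p at these 13. Their exact permutation p ran from 0.00216 to 0.0606, the highest at chr15:51833976 and chr22:59303731 among others. The groups did not overlap in 5 of the 20. Those described next were picked by the size of their difference. The largest shift towards Tough was at chr19:52620020, with Tough animals at 96.9 to 100% and Tender animals at 71.9 to 93.1%. The groups did not overlap there, and the pooled difference was -16.9 points (adjusted p = 0.000320 by logistic regression, exact permutation p = 0.00216, the smallest that 6 against 6 can give). The largest shift towards Tender was at chr5:112389315, with Tough animals at 53.3 to 91.3% and Tender animals at 89.5 to 100%, overlapping at Tough 1, and a pooled difference of 20.1 points (adjusted p = 0.0272 by logistic regression, exact permutation p = 0.00433 unadjusted).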

How the data were processed

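RRBS was analysed in *longissimus thoracis* muscle of 12 Nelore steers, 6 Tough and 6 Tender. Upstream, the authors used Trim Galore 0.4.1 for trimming, Bismark 0.23.0 for alignment (build ARS-UCD1.2) and methylKit 1.8.1 for keeping cytosines with at least 10 reads and coverage up to the 99.9th percentile in all animals. The deposited value is a score, since each animal's reads had been scaled (factor 1 to 1.27) and rounded by the authors. Whole reads before that step were recovered as an alternative.

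Percent methylation is methylated over all reads. Reads of a window were summed over its cytosines, so a read covering several of them counts once at each. Windows and cytosines were tested by logistic regression (McCullagh and Nelder overdispersion, chi-square test, Benjamini-Hochberg) on all windows with 10 or more reads in every animal, checked on simulated data. Per-animal means were compared by exact permutation tests, and window classes by exact sign-flip tests over the 12 animals. Python 3.11.15, numpy 2.4.6, pandas 2.3.3, scipy 1.17.1 and matplotlib 3.10.9 were used. Conversion groups came from the study's mapping statistics, matched by sample number. Replicate numbers only name animals.

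The members, lists and tests were chosen with earlier results of these data known. Windows named are the 5 with most cytosines, the 5 highest, 3 on either side of 80%, the 3 longest runs, 3 with the largest and 3 with the smallest spread, and 3 with the smallest p in each direction. The cytosine-level test and the distal comparisons within members and by surrounding coverage were added with the data in view. Genes were not assigned to windows and gene lists were not used, because no sequence or annotation of this build was used here. No sequence is printed for the same reason.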

Additional observations from a re-analysis of the deposited data

Results flagged for a closer look

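In 7 of the 74 groups of 6 animals examined, 1 animal lay far from the others (its gap to the nearest animal over 0.625 of the range of the group). Chance flags about 1 in 20 groups when values are normally distributed and not picked. Many of these windows were picked by their spread, level or p-value, and percentages are bounded, so that rate is no baseline for the 7 of 74. Tough 1 had a median coverage of 33 in the windows under 10%, and the other Tough animals 24 to 27.

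Of the members named, chr18:65611901-65612000 had Tough 6 at 96.9% and the other Tough animals at 98.6 to 99.5%. In chr19:8468601-8468700, Tender 2 was at 96.4% and the other Tender animals at 98.5 to 99.7%. In chr18:64543001-64543100, Tender 6 was at 44.8% and the other Tender animals at 79.5 to 94.6%. Just outside the threshold, chr24:60789001-60789100 had Tender 2 at 95% with the others at 71.4 to 80%, and chr20:71290501-71290600 had Tender 4 at 58.1% with the others at 79.2 to 85.4%. In the unmethylated window chr18:13036501-13036600, Tender 2 was at 1.55% and the other Tender animals at 0.102 to 0.599%. The cause was not tested in any of them.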

How the results depend on the processing

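Of 62 values of the main results under other settings, 44 were kept. A tested difference was kept when it held its direction and its side of the threshold. A share was kept when it lay inside the interval of the main share. For a count the band around the main count was wide, as the kept counts given next show. Kept counts included 1715 members with windows of 200 bp (1192 as reported). They also included 10205 windows under 10% with strands merged (15284 as reported). With 6 or more cytosines per window there were 2965 members and 24319 windows under 10%, and with 10 or more there were 455 and 9604. Merging strands left 489 members, and cytosines with 20 or more reads in every animal left 123 members and 1918 windows under 10%. These settings change how many cytosines a window can hold. The share of members in the last 5 Mb was 49.5% with 10 or more cytosines, 49.3% with strands merged and 38.2% with 20 or more reads, outside the interval of the main share, and the other settings gave values inside it. Within the lower conversion group, the Tender minus Tough difference of the windows under 10% turned to -0.0270 points (exact permutation p = 0.429). At like levels, a choice made after seeing the data, the spread difference was -0.654 points (90 to 95 against 5 to 10%) and 0.0839 (95 to 98 against 2 to 5%), and by overdispersion -4.37 and -0.679. Coverage by the mean over cytosines differed by 2.03 reads. The single called cytosine of the members was 0 by the F-test and 0 on reads before scaling; the cause was not tested.

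Leaving out 1 animal at a time gave 1186 to 1201 members, 15271 to 15292 windows under 10%, a distal share of 45.1 to 45.5%, a group difference of 0.0440 to 0.339 points in members and 0.0456 to 0.223 in windows under 10%, a spread difference of 1.77 to 1.89 points, a coverage difference of 0.818 to 1.18 reads (exact sign-flip permutation p = 0.0449 without Tough 1, 2 or 6), 0 member windows called and 0 to 4 single cytosines called. No member window passed both thresholds under any setting, while with the adjusted p alone 1 passed as reported, 0 by the F-test, 3 with conversion as a covariate and 211 without the overdispersion correction. By the F-test 0 of all 193249 windows passed both thresholds. No paired analysis was possible because the replicate numbers only name the animals. With a median of 25 to 33 reads per cytosine, differences at single cytosines are coarse, and reads are not independent molecules.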
